A study of Mus musculus with 12 samples.

Results

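Slit ligands and Robo receptors were followed through 12 neonatal mouse lungs, using the 6 genes of this signalling system named Slit2, Slit3, Robo1, Robo2, Robo4 and Srgap1. They were taken by symbol from a count table of 52550 genes, each matched 1 row, and all 6 were among the 15885 protein-coding genes with enough counts to be tested. Each library was bulk RNA from the whole lung of 1 C57Bl/6J mouse on postnatal day 5, with 3 mice in each of 4 groups. Wild type (WT) mice and Adm+/- mice, which are haplodeficient for the gene of the peptide adrenomedullin in every cell, received either lipopolysaccharide (LPS), a bacterial endotoxin, or phosphate-buffered saline (PBS). LPS was given intraperitoneally at 6 mg/kg once a day on postnatal days 3 to 5, and lungs were collected 6 h after the last dose. The Adm deletion was made on another strain and then backcrossed to the C57Bl/6J background, and mice without any Adm die as embryos. The groups are WT PBS (replicates 3, 4 and 5), WT LPS (9, 10 and 11), Adm+/- PBS (6, 7 and 8) and Adm+/- LPS (1, 2 and 12), where the number is that of the library.

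Slits are large secreted glycoproteins that bind heparan sulfate and are best known for keeping axons from crossing the midline. Robo receptors span the cell membrane, and binding of a Slit to Robo1 or Robo2 recruits cytoplasmic proteins such as the srGAPs, which switch off small GTPases and so change the actin skeleton and cell movement. Robo4 is a shorter receptor that is made mainly by endothelial cells and is known for its role in keeping vessels from leaking. In the lung, Slits are made largely by mesenchymal cells, and the pathway is studied in branching of airways, growth of vessels and migration of leukocytes.

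Total counts ranged from 22382535 to 38062873 per library, and CPM below, the counts per 1000000 counts, are scaled by trimmed mean of M values (TMM). Protein-coding genes took 77.8% of counts in WT PBS replicate 5 and 80.1% in Adm+/- PBS replicate 6, against 84.3% to 87.6% in the other 10. Adm itself lay at 2.87 to 4.58 CPM in Adm+/- PBS and at 3.96 to 7.09 CPM in WT PBS, ranges that overlap, with a log2 fold change of -0.50 (edgeR quasi-likelihood test, Benjamini-Hochberg adjusted p = 0.999). In LPS the same difference was -0.55 (edgeR, adjusted p = 0.480), so the genotype labels were not separated by Adm counts. The paper states that the Adm+/- genotype was established by genotyping and by RT-PCR of Adm in lung. The 15 endothelial, 14 tested fibroblast and 12 smooth muscle markers were all detected in each group. Counts of the X-linked Xist and the Y-linked Ddx3y placed 1 male in each group except Adm+/- LPS, which had 0. WT LPS alone also carried high counts of skeletal muscle genes, 2493 to 5587 summed CPM over 13 genes against 185 to 740 CPM in the other 9 libraries. Squamous epithelial genes moved with the same group, at 25.2, 1517 and 2977 summed CPM over 8 genes in the 3 WT LPS lungs, 4.38 to 40.5 CPM in Adm+/- LPS and 0.875 to 4.08 CPM in the 6 PBS lungs. The part of these admixtures in the WT values was not tested.

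LPS against PBS was the first comparison, made separately in each genotype, and it asks which parts of the pathway respond to endotoxin in the newborn lung. The ligand Slit2 and the receptors Robo1 and Robo2 fell in both genotypes, with the Robo1 fall in Adm+/- mice too small to be called. Robo4 rose in Adm+/- mice. A gene was called when its adjusted p was below 0.05 and its absolute log2 fold change was above 0.5. In WT mice 3 of 6 members were called, all lower, where 17.6% of all tested genes were called and 7.09% were called lower. Of the 6, 2 were called lower and 1 higher in Adm+/- mice, where 25.0% of all genes were called, 12.2% lower and 12.8% higher. The median log2 fold change of the 6 members was -0.44 in WT and -0.24 in Adm+/- mice, beside 0.01 and -0.01 over all tested genes. Leukocyte markers moved with LPS as well. Summed CPM of 10 neutrophil genes was 40.7 to 185 in the 6 PBS lungs and 1606 to 2965 in the 6 LPS lungs, and that of 11 monocyte and macrophage genes was 225 to 284 and 482 to 860. The part of infiltrating cells in the members' values was not tested.

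**Figure D1:**
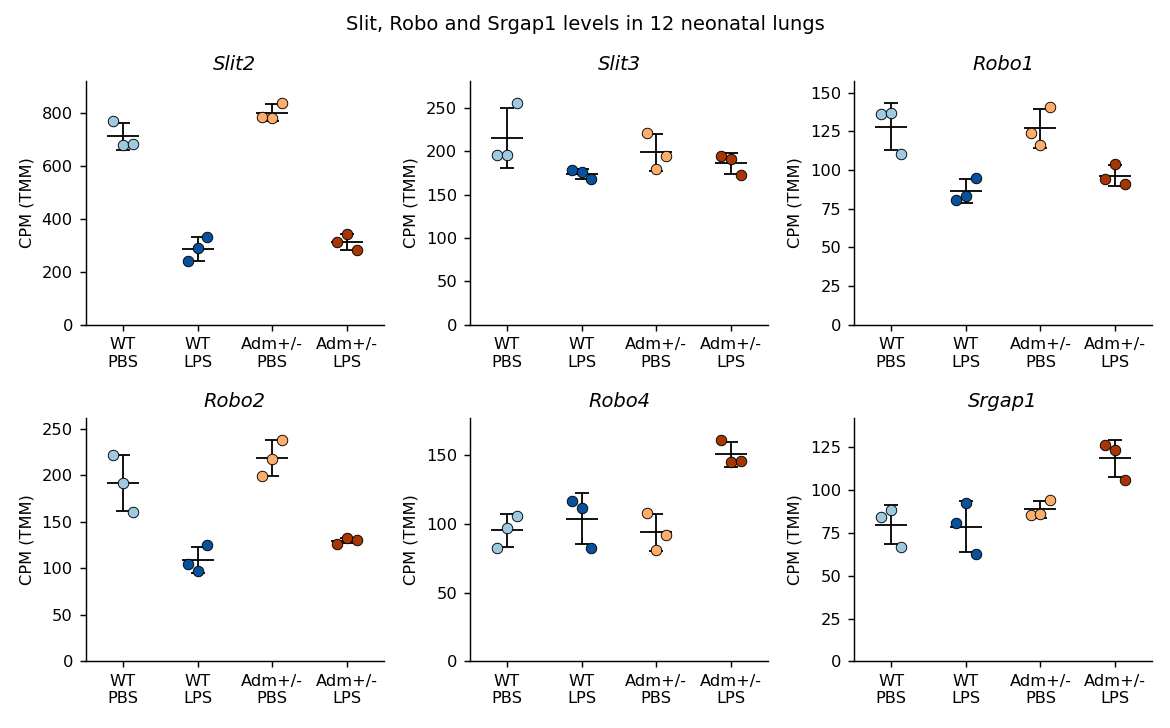
CPM (vertical axes, from 0) of the 6 genes in each of the 12 libraries, with 1 point per mouse and with the mean and SD of each group of 3 in black. Slit2, Robo1 and Robo2 lie lower in both LPS groups than in both PBS groups, while Robo4 and Srgap1 lie highest in the 3 Adm+/- LPS lungs.

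Slit2 (ENSMUSG00000031558) lies on the plus strand at chr5:47983138-48307733 of mm10, a span of 324.6 kb. Its 100 bases that end at the RefSeq start site (GRCm38.p6, chr5:47983055-47983154) are shown because Slit2 was the only member with the letters TATAAA within the RefSeq promoter window of 250 bases before to 50 after the start. Capitals mark TATAAA and GGGCGG, the letters of a TATA box and a GC box, and the Gencode start lies 17 bases upstream of the RefSeq one. The promoter of Robo2, the receptor that was called lower in both genotypes, is set beside it (chr16:74411826-74411925, minus strand) and holds neither.
Slit2: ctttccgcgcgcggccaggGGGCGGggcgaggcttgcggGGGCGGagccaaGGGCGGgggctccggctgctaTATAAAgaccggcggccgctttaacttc
Robo2: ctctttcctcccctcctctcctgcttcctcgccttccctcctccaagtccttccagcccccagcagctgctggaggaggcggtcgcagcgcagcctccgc

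On both strands, TATAAA was found in 13.6% and GGGCGG in 35.7% of 32851 RefSeq promoter windows of the same 300 bases. GGGCGG was in the windows of Slit2, Slit3 and Srgap1. The letters CCGGAA (ETS core, in 14.9% of windows), TGANTCA (AP-1, 7.81%), TTCNNNGAA (STAT, 8.3%) and GGANTTTCC (NF-kappa B, 1.25%) were in 0 of the 6 members' windows. These are matches of letters in a short window only. For Robo1 the RefSeq start used here lies 354843 bases from the Gencode start, so its window is that of an internal promoter of the Gencode gene.

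Slit2 measured 770.1, 677 and 683 CPM in WT PBS replicates 3, 4 and 5, and 239, 290.0 and 330 CPM in WT LPS replicates 9, 10 and 11. The Adm+/- lungs measured 782, 779 and 836 CPM in PBS replicates 6, 7 and 8, and 311, 343 and 281 CPM in LPS replicates 1, 2 and 12. All 6 LPS lungs lay below all 6 PBS lungs. Non-overlap with LPS lower was seen in 17.9% of all tested genes in WT and in 27.1% in Adm+/- mice, and with LPS higher in 18.3% and 26.6%. The group means were 710.3 ± 51.9 and 286 ± 45.3 CPM in WT and 799 ± 32.02 and 312 ± 30.9 CPM in Adm+/- mice (SD, n = 3). On the log2 scale the fold change of Slit2 was -1.31 ± 0.12 (SE) in WT and -1.36 ± 0.13 in Adm+/- mice, which is 2.48-fold and 2.56-fold lower (edgeR quasi-likelihood test, Benjamini-Hochberg adjusted p = 0.000115 and 6.43e-05).

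By p-value Slit2 stood at rank 40 of 15885 genes in WT and at rank 52 in Adm+/- mice. The difference between the genotypes in this LPS effect was -0.05 ± 0.17 on the log2 scale (edgeR, adjusted p = 0.996). In whole lung RNA, fewer Slit2-expressing cells and less Slit2 RNA per cell cannot be told apart.

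Slit3 (ENSMUSG00000056427, chr11:35121224-35708507, plus strand) encodes the other Slit that is abundant in lung. It measured 196, 196 and 256 CPM in WT PBS replicates 3, 4 and 5, and 178, 176 and 168 CPM in WT LPS replicates 9, 10 and 11. Values in Adm+/- lungs were 222, 180.1 and 194 CPM in PBS and 195, 192 and 173 CPM in LPS. The WT groups did not overlap, while the Adm+/- groups did. The log2 fold change was -0.31 ± 0.12 in WT and -0.09 ± 0.12 in Adm+/- mice (edgeR, adjusted p = 0.0866 and 0.603), and neither was called. The highest library, WT PBS replicate 5, is also the one with the lowest share of protein-coding counts, and its part in the Slit3 value was not tested further than by leaving out each library in turn. Those fits gave -0.38 to -0.17 in WT and -0.16 to -0.013 in Adm+/- mice.

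The ratio of the ligands, which does not depend on library scaling, was 3.35 ± 0.635 Slit2 counts per Slit3 count in WT PBS and 1.65 ± 0.310 in WT LPS (SD, n = 3). Among Adm+/- lungs it was 4.05 ± 0.453 in PBS and 1.67 ± 0.105 in LPS. The lowest PBS ratio was 2.67 and the highest LPS ratio was 1.964, so the PBS and LPS lungs did not overlap.

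Relative to summed CPM of the fibroblast markers, Slit2 was at 3.26% ± 1.55 in WT PBS and 2.02% ± 0.243 in WT LPS, and at 3.996% ± 1.23 and 2.24% ± 0.191 in Adm+/- mice. The WT groups overlapped in this ratio, which was 1.51% in the lowest WT PBS lung. Of the 14 fibroblast genes tested, 3 were called higher and 2 lower in WT LPS, with 1 higher and 4 lower in Adm+/- LPS, beside 10.5% higher and 7.09% lower of all genes in WT and 12.8% and 12.2% in Adm+/- mice. Their median log2 fold changes were -0.39 and -0.34. Slit3 had a higher share of the fibroblast markers in LPS than in PBS, at 0.933% ± 0.320 and 1.24% ± 0.228 in WT, which overlapped, and at 0.972% ± 0.211 and 1.34% ± 0.139 in Adm+/- mice, which did not. The marker sum itself was uneven in PBS, at 17264 to 45295 CPM in WT (median 17807) and 16728 to 29747 CPM in Adm+/- mice (median 17853). The lowest Slit3 shares, 0.564% and 0.745%, were in WT PBS replicate 5 and Adm+/- PBS replicate 6, the pair with low protein-coding shares. The other PBS lungs had 1.01% to 1.16%. WT PBS replicate 5 also held the lowest Slit2 share, 1.51%. The parts of the marker sum and of mesenchymal cell number in these values were not tested.

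**Figure D2:**
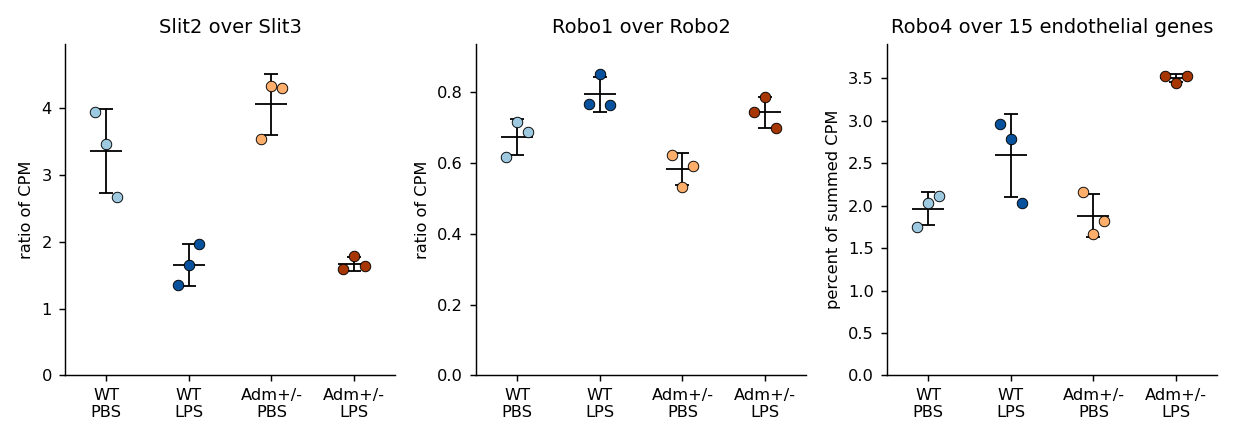
Ratios of CPM within each library for the ligand pair and the receptor pair, and Robo4 as percent of the summed CPM of 15 endothelial genes, with 1 point per mouse, group means and SD (n = 3) in black and all axes from 0. The ratio of Slit2 to Slit3 is lower in all 6 LPS lungs than in all 6 PBS lungs, and Robo4 relative to endothelial genes is highest in Adm+/- LPS, at 3.45% to 3.53%.

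The introns of Slit2 and Slit3 each hold a hairpin of microRNA 218, which makes it possible to read counts inside the host genes. Mir218-1 lies 240.8 kb from the Slit2 start, at chr5:48223942-48224051, and Mir218-2 lies 495.6 kb from the Slit3 start, at chr11:35616816-35616925, both in the sense of their host. The mature sequences (RefSeq, GRCm38.p6) are shown because both hairpins give the identical 5p product, so that it cannot be assigned to a host, while the 3p products differ. Capitals mark the seed, bases 2 to 8.
mmu-miR-218-5p: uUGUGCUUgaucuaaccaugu
mmu-miR-218-1-3p: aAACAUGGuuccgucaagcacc
mmu-miR-218-2-3p: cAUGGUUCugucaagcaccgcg

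Counts on these loci are fragments of longer RNA over the hairpin and do not measure the mature microRNA. Mir218-1 held 80, 65 and 47 counts in WT PBS and 15, 18 and 31 in WT LPS. It held 72, 101 and 99 counts in Adm+/- PBS and 12, 21 and 11 in Adm+/- LPS. No LPS lung reached any PBS lung of its genotype. Its log2 fold change was -1.95 ± 0.34 in WT and -2.71 ± 0.35 in Adm+/- mice, in a fit over 23051 annotated genes of all classes (edgeR, adjusted p = 0.00313 and 0.000240). Mir218-1 amounted to 0.403% to 0.484% of the Slit2 CPM in the 6 PBS lungs and to 0.139% to 0.374% in the 6 LPS lungs, without overlap.

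Mir218-2 held 4 to 15 counts per library, too few to show a modest change. Its log2 fold change was -0.89 ± 0.52 in WT and -0.09 ± 0.52 in Adm+/- mice (edgeR, adjusted p = 0.261 and 0.929). The groups overlapped in both genotypes.

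Besides Mir218-1, 6 other annotated loci lie inside Slit2, and none of the 7 shares an exonic base with it. In Adm+/- LPS 7 of 7 were called lower, with log2 fold changes of -2.99 to -2.13, where 10.5% of the 23051 genes were called lower. In WT LPS 3 of 7 were called lower (Mir218-1, Gm20475 and Gm42534), over a range of -1.95 to -0.91, where 5.46% of all were called lower. Calls in either direction made up 13.2% of the 23051 genes in WT and 21.6% in Adm+/- mice. In every one of the 7 the fitted fall was larger in Adm+/- than in WT mice, but none of these differences passed the test (edgeR, lowest adjusted p = 0.525, for Gm20475). The loci share 1 host. All but 4930518C09Rik are in the sense of Slit2 and, being intronic, cannot be told apart from unspliced Slit2 RNA. 4930518C09Rik lies on the opposite strand, and without the strand setting of the counting its reads cannot be separated from those of Slit2 either. The 7 loci are thus not independent of each other or of Slit2.

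These counts varied more between libraries than those of Slit2. Gm43426, 74.9 kb from the Slit2 start and the best covered of them, had 906, 335 and 174 counts in WT PBS replicates 3, 4 and 5 and 155, 225 and 352 in WT LPS, so the WT groups overlapped. The Adm+/- lungs had 354, 947 and 916 counts in PBS and 131, 192 and 158 in LPS, without overlap. The lowest PBS value of Gm43426 within each genotype was in WT PBS replicate 5 and Adm+/- PBS replicate 6, the pair with low protein-coding shares, though WT PBS replicate 4, with a share of 86.5%, lay just below the latter. Leaving out WT PBS replicate 5 raised the WT count of loci called lower to 6 of 7, and leaving out WT PBS replicate 3, WT LPS replicate 9 or WT LPS replicate 10 gave 2 of 7. The weakest WT log2 fold change of the 7 loci, -0.91, became -0.22, -0.56 and -1.39 without WT PBS replicate 3, WT LPS replicate 9 and WT LPS replicate 11. For Adm+/- mice, 6 or 7 of 7 were called lower with any library left out.

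**Figure D3:**
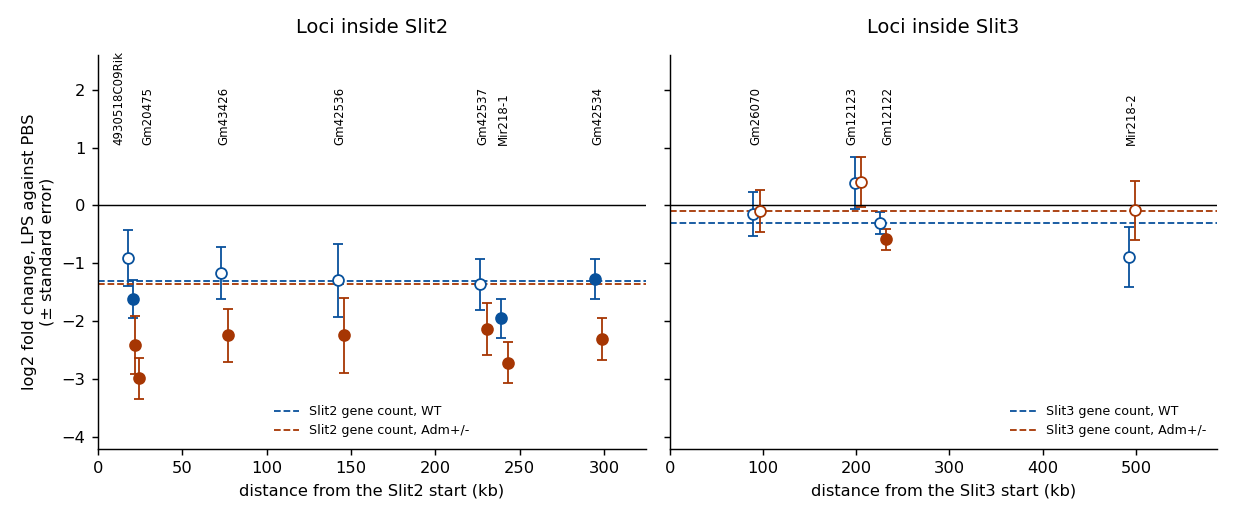
Fitted log2 fold change of LPS against PBS (± standard error) for the annotated loci inside Slit2 and Slit3, by distance from the start of the host gene in kb, in WT (blue) and Adm+/- (brown) mice, with filled points for called loci. Dashed lines are the host gene's own log2 fold change from the fit of protein-coding genes. All points inside Slit2 lie below 0 along its length, from -0.91 to -2.99, while those inside Slit3 lie between -0.89 and 0.41.

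Inside Slit3, 3 loci besides Mir218-2 were tested, and 1 was called, Gm12122, at -0.59 ± 0.19 in Adm+/- mice (edgeR, adjusted p = 0.0388). Inside Robo2, 2 loci were tested, of which Gm24272 on the opposite strand was called lower in Adm+/- mice, at -2.37 ± 0.53 (edgeR, adjusted p = 0.00713), with -1.07 ± 0.47 in WT mice (adjusted p = 0.146). Gm24272 held only 22, 15 and 15 counts in Adm+/- PBS and 1, 4 and 6 in Adm+/- LPS, so the size of its change is uncertain. The strand setting of the counting is not given in the sources used here, so reads of a locus on the opposite strand cannot be separated from those of its host.

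Robo2 (ENSMUSG00000052516, chr16:73891839-74411825, minus strand) and Robo1 (ENSMUSG00000022883, chr16:72308306-73046095, plus strand) are neighbouring Slit receptors of chromosome 16. Robo2 measured 221, 192 and 161 CPM in WT PBS replicates 3, 4 and 5, and 105, 97.5 and 125 CPM in WT LPS replicates 9, 10 and 11. Among Adm+/- lungs it measured 199, 218 and 238 CPM in PBS and 126, 132 and 130.3 CPM in LPS. All LPS lungs lay below all PBS lungs, with the 3 Adm+/- LPS lungs close together. Robo2 had log2 fold changes of -0.81 ± 0.13 in WT and -0.75 ± 0.13 in Adm+/- mice, or 1.76-fold and 1.68-fold lower (edgeR, adjusted p = 0.00175 and 0.00140).

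Robo1 measured 136, 137 and 111 CPM in WT PBS and 80.5, 83.0 and 95.0 CPM in WT LPS. The Adm+/- lungs measured 124, 116 and 141 CPM in PBS and 94.0, 104 and 91.1 CPM in LPS. No LPS lung reached any PBS lung of its genotype. Its log2 fold change of -0.57 ± 0.12 in WT was called (edgeR, adjusted p = 0.00666), but not in a fit of only the libraries compared (adjusted p = 0.0530). That of -0.40 ± 0.12 in Adm+/- mice (edgeR, adjusted p = 0.0246) passed on p but stayed within the limit on fold change. The difference between the genotypes in this effect was 0.17 ± 0.17 (edgeR, adjusted p = 0.961), so the call in WT mice and the missed call in Adm+/- mice were not shown to differ. With female libraries only, the difference was 0.43 for Robo1 and 0.35 for Robo2 (edgeR, adjusted p = 0.421 and 0.578), against 0.06 for Robo2 in all libraries. In that fit 3 of 6 members had an unadjusted p below 0.05, where 1 did in all libraries, and 0 were called. The share of all genes below that cut was not computed, so these counts have no background to be read against. Robo1 counts per Robo2 count went from 0.673 ± 0.0507 to 0.794 ± 0.0496 in WT and from 0.582 ± 0.0456 to 0.743 ± 0.0431 in Adm+/- mice (SD, n = 3), without overlap within a genotype.

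Robo4 (ENSMUSG00000032125, chr9:37401897-37415115, plus strand) is the endothelial member and, at 13.2 kb, the only one of the 6 with a short gene body. It measured 82.8, 97.3 and 106 CPM in WT PBS and 117, 112 and 82.6 CPM in WT LPS. Levels in Adm+/- lungs were 108, 81.4 and 92.4 CPM in PBS and 161, 145 and 146 CPM in LPS. The 3 Adm+/- LPS lungs were above the other 9, which overlapped with each other. The log2 fold change was 0.68 ± 0.15 in Adm+/- mice (1.605-fold higher, edgeR, adjusted p = 0.00581) and 0.12 ± 0.15 in WT mice (adjusted p = 0.581). The difference between these responses was 0.56 ± 0.21, with an unadjusted p of 0.0228 and an adjusted p of 0.514 (edgeR), and was not called. The WT value moved with the libraries used, from 0.023 without WT LPS replicate 9 to 0.26 without WT LPS replicate 11, and female libraries only gave 0.33 in WT and 0.33 for the difference (edgeR, adjusted p = 0.144 and 0.6997).

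Of 15 endothelial markers, 0 were called higher in either genotype by edgeR, DESeq2 or limma-voom, where by edgeR 10.5% of all genes in WT and 12.8% in Adm+/- mice were. Lower calls by edgeR numbered 3 in WT (4 by DESeq2) and 4 in Adm+/- mice, beside 7.09% and 12.2% of all genes. At an unadjusted p below 0.05, 7 were lower and 0 higher in WT, and 8 were lower and 1 higher in Adm+/- mice (edgeR). How many of all genes passed this unadjusted cut was not computed. By p-value, Slit3 in WT (edgeR, unadjusted p = 0.0253) stood at rank 4645 of 15885 genes. Srgap1 in Adm+/- mice (edgeR, unadjusted p = 0.0163) stood at rank 4977. At least that many genes passed the cut in each genotype, so the marker counts were not shown to be an excess. The marker that was higher in Adm+/- mice was Pecam1, an adhesion molecule of endothelial cells and leukocytes. It was at 431 to 469 CPM in Adm+/- PBS and 548 to 649.5 CPM in Adm+/- LPS, with a log2 fold change of 0.39 ± 0.12 that passed on p but stayed within the limit on fold change (edgeR, adjusted p = 0.0294). Kdr, the main VEGF receptor, fell in the same lungs, from 545 to 602 CPM to 259 to 282 CPM (edgeR, adjusted p = 0.000429). The summed level of the 15 markers was 4741 to 5089 CPM in the 6 PBS lungs and 3961 to 4568 CPM in the 6 LPS lungs. Robo4 as percent of that sum was 1.963% ± 0.193 in WT PBS, 2.59% ± 0.489 in WT LPS, 1.88% ± 0.255 in Adm+/- PBS and 3.502% ± 0.0473 in Adm+/- LPS (SD, n = 3). The Adm+/- LPS lungs thus stood apart also in this ratio, while WT LPS replicate 11, at 2.03%, lay within the PBS range.

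Srgap1 (ENSMUSG00000020121, chr10:121780991-122047315, minus strand) encodes a GTPase-activating protein that acts downstream of Robo1 and Robo2. It measured 84.5, 88.1 and 66.7 CPM in WT PBS and 80.5, 92.6 and 62.8 CPM in WT LPS. The Adm+/- lungs measured 85.6, 86.2 and 94.3 CPM in PBS and 126, 123 and 106 CPM in LPS. As for Robo4, the 3 Adm+/- LPS lungs were above the other 9. Srgap1 had log2 fold changes of 0.42 ± 0.15 in Adm+/- and -0.02 ± 0.15 in WT mice (edgeR, adjusted p = 0.0520 and 0.932), and neither was called. The direction in WT mice depends on the library, since it turned to 0.02, 0.05 and 0.12 without WT PBS replicate 3, WT PBS replicate 4 and WT LPS replicate 11.

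**Figure D4:**
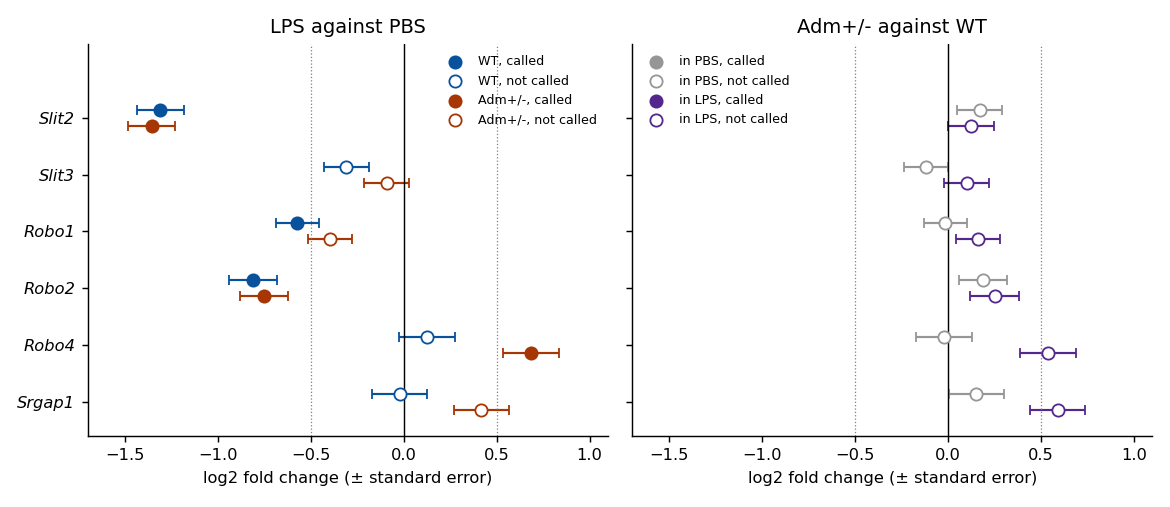
Log2 fold change ± standard error (edgeR) of the 6 genes for LPS against PBS in each genotype and for Adm+/- against WT in each treatment, with filled points for called genes and dotted lines at ± 0.5. Slit2 is at -1.31 and -1.36 in WT and Adm+/- mice, and Robo4 and Srgap1 are the points farthest above 0 in LPS between the genotypes.

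Adm+/- against WT was the second comparison, and it asks whether haplodeficiency alone or under LPS shifts these genes. In PBS the log2 fold changes of the 6 members ran from -0.12 for Slit3 to 0.19 for Robo2, and 0 were called or reached an unadjusted p below 0.05 by edgeR, by DESeq2 or by limma-voom, where 0.0% of all tested genes were called. How many of all genes reached that unadjusted p was not computed. The Robo2 value ranged from 0.079 without WT PBS replicate 5 to 0.31 without WT PBS replicate 3 and was 0.010 in female libraries only. Slit2 was at 0.17 ± 0.12 (edgeR, adjusted p = 0.999), with the 3 Adm+/- lungs just above the 3 WT lungs, a pattern that 2.47% of all genes showed, beside 2.51% with the Adm+/- lungs lower.

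In LPS all 6 members had a positive log2 fold change, from 0.10 for Slit3 to 0.59 for Srgap1, and 0 were called by edgeR, where 2.05% of all genes were called, 0.327% higher and 1.72% lower. Unadjusted p was below 0.05 for 2 of them, Srgap1 and Robo4. How many of all genes passed that unadjusted cut was not computed, and the 2.05% does not measure it. By p-value, Robo4 (edgeR, unadjusted p = 0.00409) stood at rank 701 of 15885 genes and Robo2 (unadjusted p = 0.0781) at rank 2865. The number of genes below 0.05 thus lay between these ranks. Srgap1 was at 0.59 ± 0.15 (1.51-fold, edgeR, adjusted p = 0.0658) and Robo4 at 0.54 ± 0.15 (1.45-fold, adjusted p = 0.0928). Robo2 also had its 3 Adm+/- lungs above its 3 WT lungs, at 0.25 ± 0.13 (edgeR, adjusted p = 0.433). Non-overlap with Adm+/- higher was seen in 12.2% of all genes. DESeq2 called Srgap1 and Robo4 (adjusted p = 0.00719 and 0.0228) in a fit that called 803 genes against 325 by edgeR. The 3 WT LPS lungs are those with skeletal muscle counts, 2 of them are also the ones with high squamous epithelial counts, and Adm+/- LPS is the group without a male. With female libraries only, the 2 values were 0.46 for Srgap1 and 0.40 for Robo4 (edgeR, adjusted p = 0.0978 and 0.243).

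Per kilobase of the longest coding transcript, the ligands led in WT PBS, with Slit2 at 71.3 ± 5.21 and Slit3 at 41.3 ± 6.59 CPM per kb. Robo2 followed at 22.3 ± 3.52, Robo4 at 19.3 ± 2.38, Robo1 at 16.9 ± 2.003 and Srgap1 at 10.2 ± 1.47 CPM per kb (SD, n = 3). Robo2, Robo4 and Robo1 overlapped as neighbours in this order, and the others did not. In WT LPS the order on the same scale began with Slit3 at 33.3 ± 1.02, Slit2 at 28.8 ± 4.55 and Robo4 at 21.0 ± 3.76 CPM per kb, each overlapping with the next. In Adm+/- PBS Slit2 and Slit3 were at 80.2 ± 3.22 and 38.02 ± 4.05 CPM per kb, and in Adm+/- LPS Slit3, Slit2 and Robo4 were at 35.7 ± 2.31, 31.3 ± 3.10 and 30.5 ± 1.85 CPM per kb, overlapping as neighbours.

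The order between genes rests on the length used. Slit2 has 25.43 kb of annotated exons in all its transcripts together, and per kilobase of that union Slit3 stood above Slit2 in WT PBS, at 35.6 ± 5.68 against 27.9 ± 2.04 CPM per kb. The ranges of these 2 overlapped. Changes within a gene do not depend on the length.

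The rest of the pathway was read from a list of 38 further ligands, receptors, coreceptors and cytoplasmic partners, of which 37 were tested. Their median log2 fold change was -0.09 in WT LPS and 0.05 in Adm+/- LPS. In WT mice 1 was called higher and 4 were called lower, and in Adm+/- mice 3 were called higher and 6 lower, beside the 17.6% and 25.0% of all genes called. The members missing from the main set were scarce, with Slit1 at 0.811 to 2.22 CPM and Robo3 at 0.842 to 2.07 CPM, and neither was called. Dcc, the netrin receptor that Robo1 can silence, had too few counts to be tested.

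Among ligands and receptors, Unc5b, a netrin receptor of endothelial cells that also binds Robo4, fell in both genotypes. It averaged 164 ± 57.6 CPM in WT PBS and 64.7 ± 9.81 in WT LPS, and 161 ± 36.7 and 87.7 ± 6.83 CPM in Adm+/- mice (SD, n = 3), without overlap. Its log2 fold change was -1.34 ± 0.23 in WT and -0.87 ± 0.23 in Adm+/- mice (edgeR, adjusted p = 0.00249 and 0.0130), so Unc5b and Robo4 moved in opposite directions in Adm+/- LPS lungs. The Unc5b call in Adm+/- mice was lost without Adm+/- PBS replicate 6 or Adm+/- LPS replicate 12 (edgeR, adjusted p = 0.0516 and 0.0530).

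Cxcl12, the chemokine whose attraction of leukocytes Slit2 can block, fell from 259 ± 12.4 to 162 ± 37.4 CPM in WT and from 271 ± 5.33 to 167 ± 37.7 CPM in Adm+/- mice (SD, n = 3). Its log2 fold changes were -0.68 ± 0.17 and -0.70 ± 0.17 (edgeR, adjusted p = 0.0177 and 0.0100). In WT mice this call was lost without WT LPS replicate 9 or 10 (edgeR, adjusted p = 0.0818 and 0.0563).

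Nell2, a ligand of Robo3, rose in WT LPS from 0 to 10 counts per library to 52 to 93, with 0 to 1 counts in Adm+/- PBS and 1 to 7 in Adm+/- LPS. The LPS responses of the genotypes were not shown to differ (edgeR, adjusted p = 0.996), at counts too low in Adm+/- mice for a fold change. It was the only gene of the list that was called between the genotypes in LPS (edgeR, adjusted p = 0.0128, lower in Adm+/-). The lungs with high Nell2 are the 3 WT LPS lungs with skeletal muscle counts, whose part in it was not tested.

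Sdc4, a heparan sulfate coreceptor, rose in Adm+/- LPS from 204 ± 32.3 to 572 ± 93.8 CPM, which is 1.49 ± 0.24 on the log2 scale (edgeR, adjusted p = 0.000977). In WT mice it was 223 ± 40.3 and 357 ± 119 CPM (SD, n = 3), with a log2 fold change of 0.68 ± 0.24 (edgeR, adjusted p = 0.0627). The coreceptors Sdc1 and Gpc1, the Slit-binding Dag1 and the Robo1 partner Flrt3 were not called in either genotype.

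On the cytoplasmic side, the adaptor Nck2, which links Robo to the actin machinery, fell by 0.73 on the log2 scale in WT and by 0.64 in Adm+/- mice (edgeR, adjusted p = 0.00156 and 0.00154). Evl, of the Ena/VASP family of actin regulators, was at -0.64 and -0.62 (edgeR, adjusted p = 0.0379 and 0.0338), but the call was lost in 7 of 12 fits with a library left out in WT and in 4 of 12 in Adm+/- mice (adjusted p up to 0.150 and 0.127), and in Adm+/- mice also with sex as a covariate (edgeR, adjusted p = 0.0602). Vasp of the same family was at 0.53 in Adm+/- mice, as was the ligand Ntn1 (edgeR, adjusted p = 0.0257 and 0.0233), and both calls were lost in 5 of 12 fits with a library left out. Of the GTPase-activating partners, Srgap3 and Arhgap39 were called lower in Adm+/- LPS, at -0.79 ± 0.22 and -0.65 ± 0.17 (edgeR, adjusted p = 0.0171 and 0.0138), while Srgap2 was not called in either genotype, at -0.09 and -0.15. With a library left out the Srgap3 call was lost in 4 and the Arhgap39 call in 2 of 12 fits (edgeR, adjusted p up to 0.0657 and 0.0526). Srgap3 and Srgap1 thus lay on opposite sides of 0 in Adm+/- LPS, at -0.79 and 0.42.

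Over the 12 libraries, log2 CPM of Slit2 had a Pearson r of 0.95 with Robo2 and of 0.93 with Robo1, and Robo1 had 0.95 with Robo2. Around the group means, which takes out the effects of treatment and genotype, these values were 0.54, 0.67 and 0.79. Robo4 and Srgap1 had an r of 0.73, and 0.30 around the group means. Other large values around the group means were those of Robo2 with Robo4 (-0.81), Slit3 with Robo2 (-0.71), Slit3 with Robo4 (0.69) and Slit2 with Robo4 (-0.62). WT PBS replicate 5 and Adm+/- PBS replicate 6, the pair with low protein-coding shares, each had the highest Slit3 and Robo4 and the lowest Robo2 of their group. Their part in the values around the group means was not tested. These correlations describe 12 libraries that share 4 group means and a common scaling.

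By the same measure over 12 libraries, the genes most like Slit2 were Unc5c (r = 0.988), another netrin receptor, Dpy19l3 (r = 0.987) and Hoxb5 (r = 0.985). Those most like Robo2 were Ptprd (r = 0.990), Car2 and Hmcn1, and those most like Robo1 were Hmcn1 (r = 0.969), Fads1 and Selenon. Robo4 was closest to Tanc1 (r = 0.981), Ppm1j and Meox1. Slit3 was closest to Zbtb17 (r = 0.969), Nrde2 and Prrc2a, and Srgap1 to Drg2 (r = 0.953), Sf3b3 and the chemokine Ccl22.

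All members but Robo4 span over 250 kb, as do 642 of 15875 tested genes with a known span. Of these long genes 13.6% were called lower in WT LPS and 18.8% in Adm+/- LPS, beside 7.09% and 12.2% of all tested genes, and their median log2 fold changes were -0.07 and -0.14. Of the 5 long members, Robo2 (520.0 kb) and Slit2 (324.6 kb) were called lower in both genotypes and Robo1 (737.8 kb) in WT, while Slit3 (587.3 kb) and Srgap1 (266.3 kb) were not called. The part of gene length in these values was not tested.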

How the data were processed

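Per the labels, reads were trimmed with Trim Galore. HISAT2 was used for alignment to mm10 and featureCounts for counting per Gencode gene, and the authors deposited the raw counts. The libraries were made from rRNA-depleted RNA with a directional kit. The Gencode release and the strand setting are not given in the sources used here. Annotation was taken from Gencode M21 (99.7% of genes matched) and sequences from RefSeq GRCm38.p6. The 15885 of 21950 protein-coding genes that passed filterByExpr were TMM-scaled and tested with edgeR 4.0.16 (glmQLFit, glmQLFTest, R 4.3.3) in 1 fit of 12 libraries with a coefficient per group, 8 residual degrees of freedom, 5 contrasts and Benjamini-Hochberg adjustment over all genes. Intronic loci came from the same fit over 23051 genes. Log2 CPM used a prior count of 2. SE is the absolute log2 fold change over the square root of F. Same-group libraries differed by more than sampling noise. The labels give no litters or cages. Counts carry no molecular identifiers, so depth covers counting error only. On simulated counts for 15885 genes, 50% of log2 changes of -1 and 18% of -0.7 were recovered in the WT comparison, and 54% and 22% in the Adm+/- one. The simulation changed far fewer genes than were called in the data, which makes the adjusted threshold stricter. These rates therefore do not measure recovery in the real comparisons.

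The members, the pathway list and the marker lists were chosen with earlier results of these data known. Named genes are the members, Adm, 13 listed pathway genes, any other pathway gene called in an LPS comparison, loci annotated inside members, and the 3 genes of at least 1 CPM most correlated with each member. Alternatives covered RLE factors, DESeq2 1.42.0, limma-voom and its treat test (limma 3.58.1), other gene filters, fits of only the libraries compared and each library left out. Fits of female libraries, with sex as a covariate, and of intronic loci with each library left out, and the transcript length, were added after the values had been seen. Pecam1 and Kdr were named after their values had been seen.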

Additional observations from a re-analysis of the deposited data

How the results depend on the processing

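No paired analysis was possible because the groups share no replicate numbers. Slit2 was called in both genotypes under every alternative run. Against a null of 0.5 (limma-voom treat), Slit2 was the 1 member called in each genotype, with Robo1 at -0.57 and Robo2 at -0.81 in WT (adjusted p = 1.0 and 0.232), Robo2 at -0.75 and Robo4 at 0.69 in Adm+/- mice (adjusted p = 0.278 and 0.588), and 1 other pathway gene called in each. That test called 542 genes in WT and 1139 in Adm+/- mice, against 2791 and 3968. With only the libraries compared, Robo1 was at -0.57 in WT (edgeR, adjusted p = 0.0530), 3 pathway genes were called and 1152 genes in all. Between genotypes in LPS, DESeq2 called 2 members (Robo4 0.54, Srgap1 0.60), as did edgeR without WT PBS 5 and Adm+/- PBS 6 (0.55 and 0.60, adjusted p = 0.0432 and 0.0343), a fit that called 548 genes. In female libraries Slit2 was at 0.13 for the difference in LPS response and, between genotypes in PBS, Slit3 was at 0.033, Robo4 at 0.071 and Srgap1 at -0.0081, each of opposite sign to all libraries.

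Leaving out 1 library kept 3 members called in each genotype. Srgap1 in WT ranged from -0.16 to 0.12, the difference in LPS response from -0.15 to 0.071 for Slit2 and -0.056 to 0.18 for Robo2, and PBS genotype values from -0.20 to 0.020 for Slit3, -0.11 to 0.047 for Robo1 and -0.13 to 0.073 for Robo4. Srgap1 between genotypes in LPS ranged from 0.45 to 0.72 and was the 1 member called without WT PBS replicate 5 or WT LPS replicate 10, so that 0 to 1 members were called. Pathway genes called ranged from 3 to 8 in WT (3 without WT LPS replicate 9, 8 without WT PBS replicate 3) and from 4 to 10 in Adm+/- mice (4 without Adm+/- LPS replicate 2 or 12). The cause of these changes was not tested. Depth limits Mir218-2, at 4 to 15 counts per library, and Gm24272, at 1 to 22.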
